A study of Arabidopsis thaliana and Solanum lycopersicum with 40 samples.

Results

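The genes described are 10 Arabidopsis thaliana genes whose enzymes make and decorate indolic glucosinolates, taken by their identifiers from a table of 33557. Core synthesis has 4 of them, CYP79B2 (AT4G39950), CYP79B3 (AT2G22330), CYP83B1 (AT4G31500) and SOT16 (AT1G74100). Side-chain modification has 6, CYP81F2 (AT5G57220), IGMT1 (AT1G21100), IGMT2 (AT1G21120), IGMT3 (AT1G21110), IGMT4 (AT1G21130) and IGMT5 (AT1G76790). All 10 were among the 19553 genes that entered the fit. RNA sequencing was done on roots of accession Col-0, from seedlings raised on MS agar in white light that was never switched off for 5 d. The seedlings were then shaded, or stayed unshaded, for 30 min, 3 h, 7 h, 1 d, 3 d or 5 d. Each of the 12 groups of light and time held 2 libraries, called a and b, and nothing in the labels says whether these came from separate cultures. The p-values therefore measure the spread between these samples, which may be technical. How the shade was made, and how many roots went into a library, is not given in the sources used here.

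Indolic glucosinolates are sulfur-rich defence compounds that crucifers make from tryptophan. CYP79B2 and CYP79B3 are cytochrome P450 enzymes that both turn tryptophan into indole-3-acetaldoxime, a branch point that also feeds the phytoalexin camalexin and some of the hormone auxin. CYP83B1 commits the oxime to glucosinolates, and SOT16 is the sulfotransferase of the last core step. CYP81F2 then hydroxylates the indole ring and the indole glucosinolate methyltransferases (IGMT) methylate that hydroxyl group, which gives the methoxylated forms known for their role in defence against fungi and insects. IGMT5 acts on a hydroxyl group at the ring nitrogen, in a branch known from roots.

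Levels are FPKM, fragments scaled by transcript length and by library. The labels' tissue was checked first with 7 root marker genes, whose summed level ran from 214 to 305 FPKM in shaded libraries (median 260.5) and from 218 to 285 FPKM in unshaded libraries (median 253). Averaged over times, 1 root marker rose (CASP1), 1 fell (SHV2, also called COBL9) and 5 did not pass the test. Of all genes tested, 34.6% were called higher on that average and 35.9% lower. At 5 d, however, the root markers SHR (-0.43), SCR (-0.22), MYB66 (-0.47) and PLT1 (-0.57) were called lower in shade, on the log2 scale. CASP1, SHV2 and EXPA7 did not pass the test then, and 33.7% of all genes tested were called lower. CASP1 averaged 136 FPKM, the most of the 7, so the sum says little of the others. The part of these falls in the results was not tested. Summed levels of 6 shoot markers were 78.2 to 163 FPKM in shaded libraries and 42.2 to 105 FPKM in unshaded libraries. The light-harvesting gene CAB2 among them was near 0 throughout (mean 0.108 FPKM). Whether reads shared with genes of similar sequence lowered its value was not tested. The shoot marker sum was higher in shaded roots at each time up to 3 d and not at 5 d, where the groups overlapped. RBCS1A (mean 40.1 FPKM) and RCA (27.7 FPKM) were the most abundant, so the sum says little of the others. RBCS1A, RCA and LHCA1 were called higher in shade at 7 h, 1 d and 3 d. LHCB2.1 was called higher at 3 h (0.66) and 7 h (0.71) and lower at 1 d (-1.17), 3 d (-1.02) and 5 d (-1.96). SBPASE was called lower at 7 h, 1 d (-0.38 at both) and 5 d (-0.46). The sums of each time are given with the 2 comparisons. The part of these markers in the results was not tested at any time. Absolute depth is unknown, and relative depth ranged from 0.843 to 1.47 over the 24 libraries.

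IGMT1 to IGMT4 lie side by side on the minus strand of chromosome 1, at chr1:7386762-7400736 in the TAIR10.1 assembly, a stretch of 13975 bases. Along the chromosome the order is IGMT1, IGMT3, IGMT2 and IGMT4, with 1468, 3575 and 1990 bases between neighbours, and each has 3 exons. IGMT5 is elsewhere on that chromosome, at chr1:28822186-28823727 on the minus strand. CYP81F2 is at chr5:23187840-23189902 on the plus strand. The coding sequences of IGMT2 and IGMT3 were identical at 1093 of 1122 positions (97.4%). The other pairs among IGMT1 to IGMT4 were 92.5% to 93.4% identical, and IGMT5 matched each of them at 76.5% to 76.9% of aligned positions. A coding stretch of 60 bases (positions 892 to 951, counted from the start codon) is shown because IGMT2 and IGMT3 differ there most, and capitals mark bases that differ from IGMT3.
IGMT1: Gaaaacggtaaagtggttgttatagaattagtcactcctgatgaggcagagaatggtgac
IGMT2: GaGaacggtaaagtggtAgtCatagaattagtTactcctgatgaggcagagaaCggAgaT
IGMT3: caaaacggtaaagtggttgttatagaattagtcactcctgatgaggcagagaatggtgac
IGMT4: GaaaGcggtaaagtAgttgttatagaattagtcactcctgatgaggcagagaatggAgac
IGMT2 differs from IGMT3 at 8 of these 60 positions, IGMT4 at 4 and IGMT1 at 1. Of all 50-base stretches in the IGMT3 transcript, 42.6% also occur in the transcript of another gene, against 35.4% for IGMT2, 12.1% for IGMT1 and 10.03% for IGMT4. A short read from such a stretch cannot be placed from its letters alone, and how the authors' counting divided such reads is not given in the sources used here. The levels of IGMT2 and IGMT3 are therefore the least certain of the 10. For IGMT5 the share was 1.67%, and for CYP81F2 and the 4 core genes it was 0%.

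The 250 bases before the transcript start of the 4 genes that rose late in shade, and of IGMT3, which did not pass the test at any time, are shown next, read from RefSeq's annotation of TAIR10.1. Capitals mark the W-box, the core motif bound by WRKY transcription factors, searched on both strands as TTGACC or TTGACT.
CYP81F2 (chr5:23187590-23187839, plus strand): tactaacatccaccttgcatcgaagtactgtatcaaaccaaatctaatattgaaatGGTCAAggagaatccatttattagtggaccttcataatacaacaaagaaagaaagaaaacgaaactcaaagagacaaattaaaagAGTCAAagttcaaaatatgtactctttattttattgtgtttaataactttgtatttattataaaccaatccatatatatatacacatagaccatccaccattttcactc
IGMT1 (chr1:7388513-7388762, minus strand): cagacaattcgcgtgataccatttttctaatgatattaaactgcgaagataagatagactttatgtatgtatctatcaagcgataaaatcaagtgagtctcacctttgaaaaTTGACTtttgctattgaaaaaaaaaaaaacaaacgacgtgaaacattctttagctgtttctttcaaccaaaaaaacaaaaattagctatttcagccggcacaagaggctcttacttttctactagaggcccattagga
IGMT2 (chr1:7396824-7397073, minus strand): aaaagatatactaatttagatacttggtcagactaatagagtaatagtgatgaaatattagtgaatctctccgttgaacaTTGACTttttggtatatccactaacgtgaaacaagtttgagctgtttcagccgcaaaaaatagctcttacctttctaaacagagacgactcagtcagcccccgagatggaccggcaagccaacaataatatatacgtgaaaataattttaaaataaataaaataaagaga
IGMT4 (chr1:7400737-7400986, minus strand): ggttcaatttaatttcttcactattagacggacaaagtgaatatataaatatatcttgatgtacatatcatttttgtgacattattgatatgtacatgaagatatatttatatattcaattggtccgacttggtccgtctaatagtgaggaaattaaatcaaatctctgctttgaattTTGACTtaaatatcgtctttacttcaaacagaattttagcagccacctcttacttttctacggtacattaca
IGMT3 (chr1:7391604-7391853, minus strand): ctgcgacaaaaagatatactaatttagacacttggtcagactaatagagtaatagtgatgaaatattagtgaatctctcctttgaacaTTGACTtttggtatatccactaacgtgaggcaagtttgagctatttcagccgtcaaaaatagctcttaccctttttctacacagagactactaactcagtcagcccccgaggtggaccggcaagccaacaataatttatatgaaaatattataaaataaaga
CYP81F2 held 2 matches, both on the opposite strand, and the other 4 genes held 1 each. No match was found in this window in CYP79B2, CYP79B3, CYP83B1, SOT16 or IGMT5. For CYP79B2 the window, chr4:18524996-18525245, lay mostly inside the annotated gene, which starts at 18525042. For CYP79B3 the window, chr2:9488292-9488541, also reached into the gene, which starts at 9488413. Over all 31345 promoters of this length, 28.0% held a W-box match. The G-box, CACGTG, the core motif bound by phytochrome-interacting factors and MYC factors, had no match in any of the 10 windows and occurred in 5.98% of all promoters. The windows of IGMT2 and IGMT3 were identical at 223 of 235 aligned positions (94.9%), W-box included. The levels of these genes in shade, the least certain of the 10 because of shared reads, are given below. A match is a description of letters, not of a bound site.

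**Figure D1:**
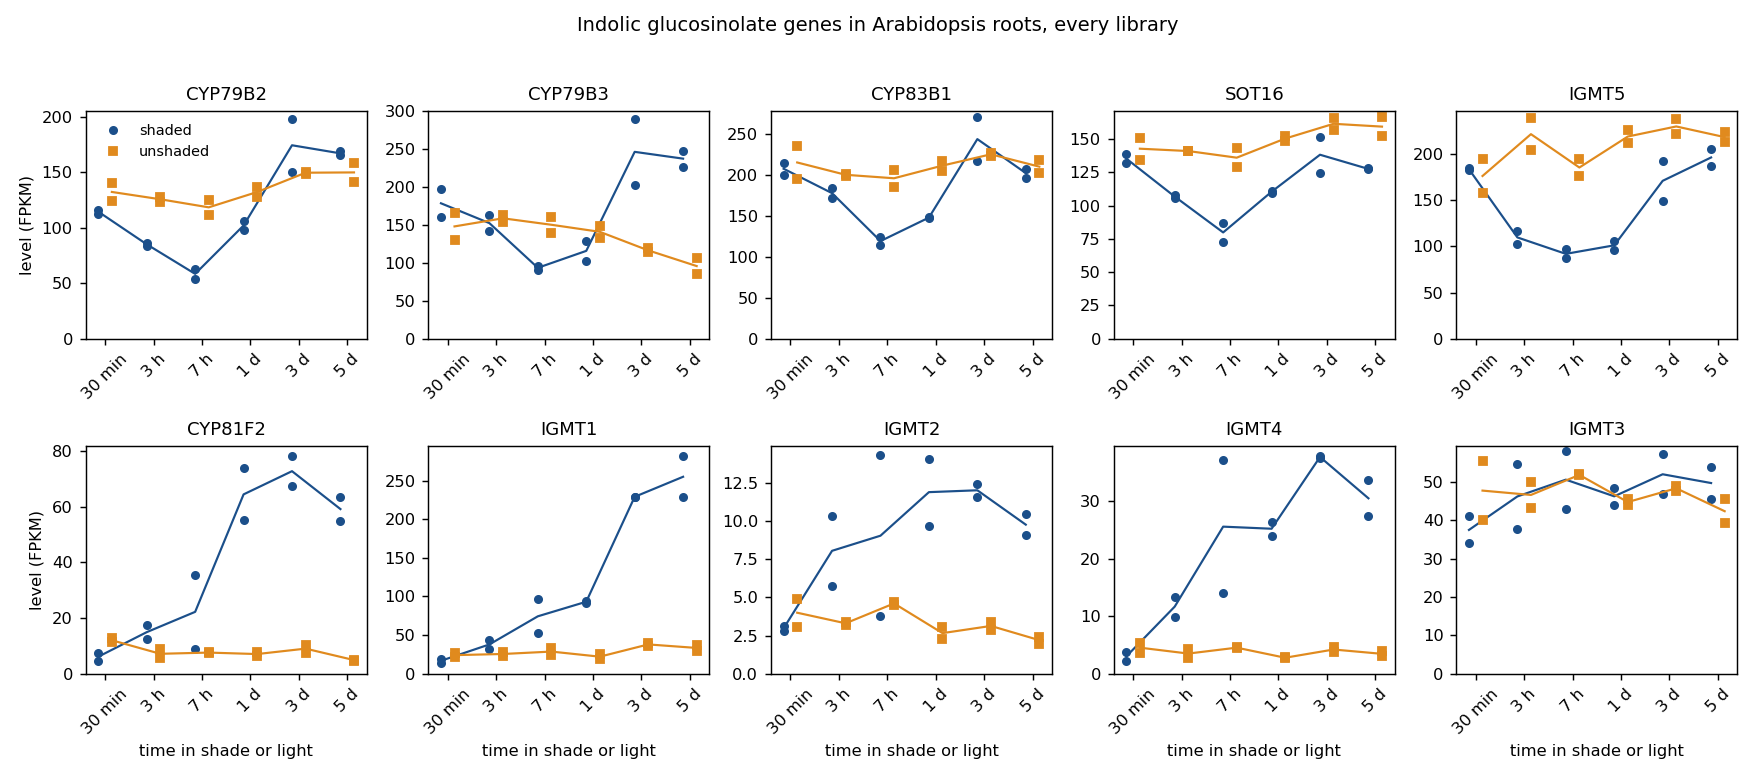
Levels (FPKM, linear axes from 0) of the 10 genes in every library against time, with shaded libraries as circles and unshaded libraries as squares, and lines through the means of 2 libraries. The 4 core genes and IGMT5 in the top row were lower in shade at 7 h, while CYP81F2, IGMT1, IGMT2 and IGMT4 in the bottom row were far above unshaded roots from 1 d on, and IGMT3 overlapped at 5 of 6 times.

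The first comparison asks how shade changed core synthesis over time. All 4 core genes fell in shade at 7 h, and the fall was already past the test at 3 h for CYP79B2 and SOT16. By 3 d the 4 genes had parted: CYP79B3 was 2.12 times its unshaded level, SOT16 was slightly lower, and CYP79B2 and CYP83B1 did not pass the test. The median shade effect of the 4 on log2(FPKM + 1), shaded minus unshaded, was -0.06 after 30 min and -0.28 after 3 h. It reached -0.74 after 7 h and -0.41 after 1 d, and stood at 0.16 after 3 d and 0.05 after 5 d, while the median over all genes tested lay between -0.07 and 0.03. Single libraries decided its sign at 3 times, since it was 0.0472 at 30 min without unshaded replicate b, -0.0214 at 3 d without shaded replicate a and -0.0161 at 5 d without unshaded replicate a. Without shaded 3 d replicate b it was 0.33. The summed level of the shoot markers was 88.4 and 78.2 FPKM in shaded roots at 30 min, against 64.2 and 60.5 FPKM in unshaded roots. At 3 h it was 91.6 and 112 FPKM in shaded roots, against 68.8 and 68.6 FPKM in unshaded roots, and at 7 h it was 163 and 155 FPKM in shaded roots, against 77.9 and 98.9 FPKM in unshaded roots.

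CYP79B2, at chr4:18525042-18527602 on the plus strand, had 113 and 116 FPKM in shaded roots at 30 min, against 124 and 141 FPKM in unshaded roots. At 3 h it had 83.9 and 86.3 FPKM in shaded roots, against 123 and 128 FPKM in unshaded roots. At 7 h it had 62.6 and 54.2 FPKM in shaded roots, against 111 and 125 FPKM in unshaded roots. The shaded libraries were below both unshaded libraries at each of these times, and 7 h held the lowest level of the course. Its log2 fold change at 7 h was -1.01 ± 0.11 (SE), with an adjusted p of 3.01e-06 in limma. At 1 d it had 98.3 and 106 FPKM in shaded roots, against 128 and 137 FPKM in unshaded roots, and at 3 d 198 and 151 FPKM in shaded roots, against 149 and 150.4 FPKM in unshaded roots. The shaded level was thus above both unshaded libraries by 3 d, but the difference of 0.21 ± 0.11 did not pass the test (adjusted p = 0.108). That call rested on 1 library, since without shaded 3 d replicate b the difference was 0.40 (adjusted p = 0.00381). The fall at 1 d, -0.37 ± 0.11, lost its call without shaded 1 d replicate a (adjusted p = 0.0657) or unshaded 1 d replicate b (adjusted p = 0.0647).

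CYP79B3, at chr2:9488413-9491404 on the plus strand, encodes the other enzyme of the same step. It had 95.98 and 91.2 FPKM in shaded roots at 7 h, against 140.2 and 161 FPKM in unshaded roots. By 3 d it had 290.4 and 203 FPKM in shaded roots, against 114 and 119 FPKM in unshaded roots. By 5 d it had 227 and 248 FPKM in shaded roots, against 85.2 and 107 FPKM in unshaded roots. The order of the groups was thus turned round between 7 h and 3 d, with no overlap at either time. The log2 fold change was -0.68 ± 0.17 at 7 h (adjusted p = 0.00476), 1.05 ± 0.17 at 3 d (adjusted p = 8.28e-05) and 1.31 ± 0.17 at 5 d (adjusted p = 1.23e-05). Without unshaded 7 h replicate b, the 7 h difference was -0.58 and missed the threshold (adjusted p = 0.0503). At 30 min and 3 h the groups overlapped, and at 1 d the shaded libraries, 129.5 and 102 FPKM, lay below the unshaded ones, 133 and 149 FPKM, without passing the test.

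The 2 genes of the first step differed in how much each was present. The ratio of CYP79B3 to CYP79B2 FPKM was 1.35 and 1.502 in shaded roots at 5 d, against 0.602 and 0.674 in unshaded roots. At 3 d it was 1.47 and 1.35 in shaded roots, against 0.766 and 0.793 in unshaded roots. CYP79B3 was thus the more abundant of the pair in every shaded library but 1 (0.968 at 1 d, replicate b), and the less abundant in unshaded roots at 3 d and 5 d. Part of this came from the unshaded roots, where CYP79B3 was 166 and 131 FPKM at 30 min and lower at 5 d, as given above. It changed with time in unshaded roots (adjusted p = 0.0197), where 34.3% of all genes tested were called and the other 9 members were not. With all libraries 3 of the 10 had an unadjusted p under 0.05 there. The number called moved with the setting, to 0 without unshaded 5 d replicate a, to 2 without unshaded 30 min replicate b, shaded 7 h replicate a or shaded 7 h replicate b, and to 3 with equal FPKM sums or without either shaded 3 d library. The coding sequences of the pair were 81.5% identical, and they shared no 50-base stretch.

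CYP83B1, at chr4:15273410-15275404 on the minus strand, had 124 and 114 FPKM in shaded roots at 7 h, against 186 and 207 FPKM in unshaded roots. At 1 d it had 148 and 149 FPKM in shaded roots, against 218 and 206 FPKM in unshaded roots. At 3 d it had 271 and 217 FPKM in shaded roots, against 228 and 223 FPKM in unshaded roots. The shaded libraries were below the unshaded ones at 3 h, 7 h and 1 d and overlapped them at the other times. The log2 fold change was -0.71 ± 0.10 at 7 h (adjusted p = 3.36e-05) and -0.51 ± 0.10 at 1 d (adjusted p = 0.000427), and did not pass the test at the other 4 times. At 3 d it was 0.11, and 0.26 (adjusted p = 0.0386) without shaded 3 d replicate b.

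SOT16, a single-exon gene at chr1:27864345-27865694 on the minus strand, was the core gene that stayed lower in shade from 3 h on. It had 87.4 and 72.4 FPKM in shaded roots at 7 h, against 129 and 143 FPKM in unshaded roots. After 5 d it had 127 and 128 FPKM in shaded roots, against 152 and 167 FPKM in unshaded roots. Its shaded libraries were below its unshaded ones at each of the last 5 times. The log2 fold change was -0.40 after 3 h, -0.77 after 7 h and -0.44 after 1 d, then -0.23 after 3 d and -0.32 after 5 d, each ± 0.09, and all 5 passed the test. The call at 3 d (adjusted p = 0.0434) was lost without shaded 3 d replicate b (-0.09), unshaded 3 d replicate a (-0.19) or unshaded 3 d replicate b (-0.27), and under 5 other settings. That at 5 d (adjusted p = 0.00831) was lost without unshaded 5 d replicate b (-0.25).

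The second comparison asks the same of side-chain modification. CYP81F2, IGMT1, IGMT2 and IGMT4 rose in shade at 1 d, 3 d and 5 d, to between 3.84 and 12.0 times their unshaded means. IGMT5 fell at 3 h, 7 h, 1 d and 3 d, and IGMT3 did not pass the test at any time. The median effect of the 6 genes was -0.40 after 30 min, 0.76 after 3 h and 0.88 after 7 h, and reached 1.92 after 1 d, 2.11 after 3 d and 2.28 after 5 d. Leaving out 1 library moved it to between -0.61 and -0.18 at 30 min, between 0.49 (without shaded replicate b) and 0.99 at 3 h, and between -0.0105 (without shaded replicate a) and 1.59 (without shaded replicate b) at 7 h. At the times of the rises the summed level of the shoot markers was 95.5 and 94.2 FPKM in shaded roots at 1 d, against 55.0 and 57.2 FPKM in unshaded roots, and 95.5 and 93.7 FPKM in shaded roots at 3 d, against 42.2 and 51.5 FPKM in unshaded roots. After 5 d it was 84.4 and 93.8 FPKM in shaded roots, against 105 and 93.5 FPKM in unshaded roots. Bulk libraries cannot tell more RNA per cell from more cells of a type that expresses a gene, nor less RNA from fewer cells.

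CYP81F2, the hydroxylase, started low. At 30 min it had 4.69 and 7.55 FPKM in shaded roots, against 11.3 and 12.7 FPKM in unshaded roots. At 3 h it had 12.3 and 17.5 FPKM in shaded roots, against 5.56 and 8.76 FPKM in unshaded roots. These groups did not overlap, in opposite orders, but neither difference passed the test (adjusted p = 0.256 at 30 min and 0.0981 at 3 h). At 1 d it had 55.1 and 73.7 FPKM in shaded roots, against 6.28 and 7.85 FPKM in unshaded roots. By 3 d it had 78.1 and 67.3 FPKM in shaded roots, against 10.5 and 7.55 FPKM in unshaded roots. At 5 d it had 63.4 and 54.8 FPKM in shaded roots, against 4.73 and 5.09 FPKM in unshaded roots. Shaded roots thus held 9.11 times the unshaded mean at 1 d, 8.06 times at 3 d and 12.0 times at 5 d. The log2 fold changes were 3.01 at 1 d, 2.89 at 3 d and 3.34 at 5 d, each ± 0.41, with adjusted p of 2.44e-05, 2.63e-05 and 7.58e-06.

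IGMT1 was the member that reached the highest level of the cluster. It had 14.5 and 19.0 FPKM in shaded roots at 30 min, against 21.4 and 26.7 FPKM in unshaded roots. At 1 d it had 91.8 and 94.5 FPKM in shaded roots, against 18.6 and 25.6 FPKM in unshaded roots. By 5 d it had 281 and 228 FPKM in shaded roots, against 29.5 and 37.2 FPKM in unshaded roots. Its level in shade was thus higher at each later time in turn by its means, 16.8, 37.9, 74.3, 93.2, 229 and 255 FPKM, whereas the unshaded means stayed between 22.1 and 37.9 FPKM. The libraries of neighbouring times did not overlap except between 7 h and 1 d and between 3 d and 5 d. The log2 fold change was 1.29 ± 0.25 at 7 h (adjusted p = 0.000814), 2.04 ± 0.25 at 1 d, 2.56 ± 0.25 at 3 d and 2.90 ± 0.25 at 5 d (adjusted p = 2.71e-07). When only the 4 libraries of 7 h were fitted, that difference missed the threshold (adjusted p = 0.0548).

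IGMT4 was the earliest of these genes to pass the test. It had 9.91 and 13.4 FPKM in shaded roots at 3 h, against 2.78 and 4.23 FPKM in unshaded roots, a log2 fold change of 1.495 ± 0.32 (adjusted p = 0.00294). At 3 d it had 37.5 and 37.8 FPKM in shaded roots, against 4.67 and 3.75 FPKM in unshaded roots. At 1 d, 3 d and 5 d its shaded means were 9.05, 8.94 and 8.81 times its unshaded means, so the effect differed little between these times. IGMT2, the scarcest member, had 9.71 and 14.1 FPKM in shaded roots at 1 d, against 2.29 and 3.04 FPKM in unshaded roots. After 5 d it had 10.5 and 9.08 FPKM in shaded roots, against 1.98 and 2.42 FPKM in unshaded roots. Its shaded means were 4.47, 3.84 and 4.44 times the unshaded means at 1 d, 3 d and 5 d, and each passed the test. At 3 h IGMT2 had 5.77 and 10.3 FPKM in shaded roots, against 3.42 and 3.19 FPKM in unshaded roots. That difference of 1.03 missed the threshold (adjusted p = 0.0576), and without shaded 3 h replicate a it was 1.40 (adjusted p = 0.0406).

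IGMT3, whose sequence is closest to IGMT2, did not follow it. It had 34.0 and 41.0 FPKM in shaded roots at 30 min, against 40.1 and 55.4 FPKM in unshaded roots. By 3 d it had 57.2 and 46.7 FPKM in shaded roots, against 48.9 and 47.7 FPKM in unshaded roots. At 5 d it had 53.7 and 45.6 FPKM in shaded roots, against 39.3 and 45.4 FPKM in unshaded roots. The groups overlapped at each of the first 5 times, and at 5 d the lower shaded library lay just above the higher unshaded one. Its average log2 fold change over the 6 times was -0.01 ± 0.08 (adjusted p = 0.934), and the light by time test gave an adjusted p of 0.493. A p that misses the threshold does not show that shade left IGMT3 as it was, and its sign flipped with the scaling (0.01 with equal FPKM sums).

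The make-up of the IGMT cluster turned over in shade. IGMT3 made up 63.4% and 61.2% of the summed FPKM of IGMT1 to IGMT4 in shaded roots at 30 min, against 58.7% and 59.9% in unshaded roots. At 1 d it made up 26.0% and 26.4% in shaded roots, against 65.7% and 58.4% in unshaded roots, and at 5 d 14.2% and 14.7% in shaded roots, against 52.6% and 51.5% in unshaded roots. IGMT3 was thus the main copy in all 12 unshaded libraries, at 50.5% or more, and a minor one in shade from 3 d. IGMT1 took its place, with 74.2% and 73.6% in shaded roots at 5 d, against 39.6% and 42.2% in unshaded roots. The summed level of the 4 genes was 379 and 310.4 FPKM in shaded roots at 5 d, against 74.6 and 88.1 FPKM in unshaded roots. These sums depend less than the single levels on how shared reads were divided.

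**Figure D2:**
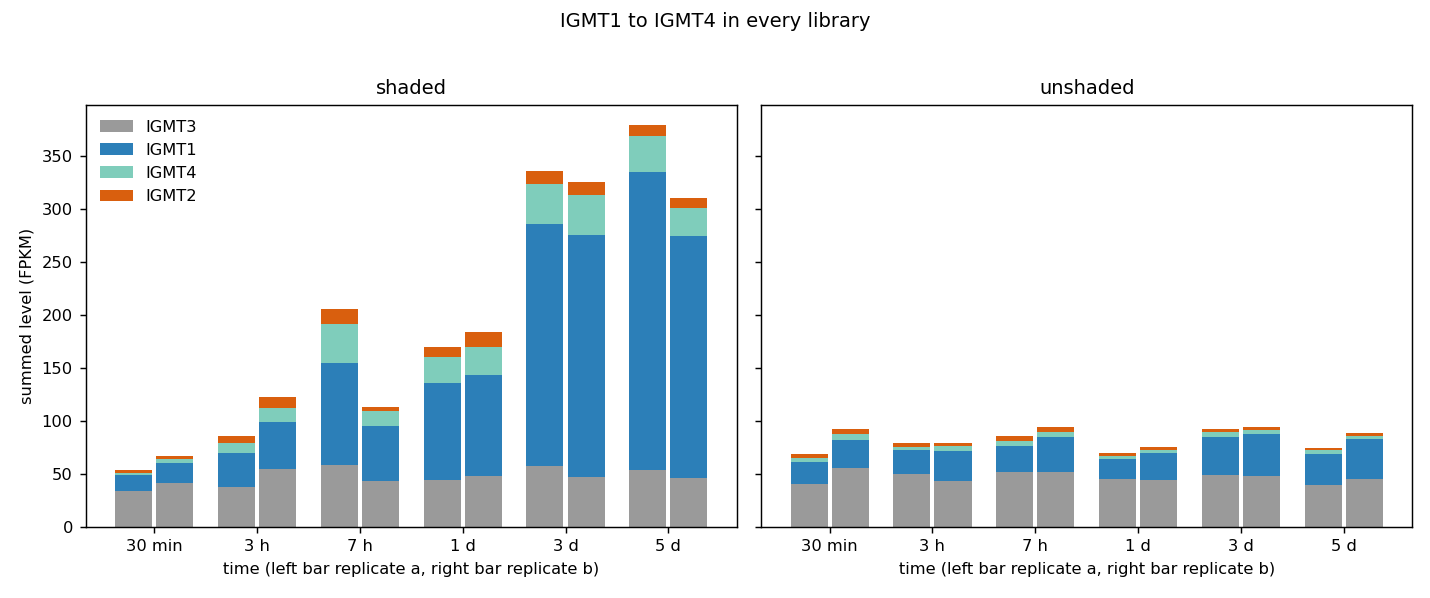
Summed level (FPKM) of IGMT1 to IGMT4 in every library, stacked by gene, with shaded roots in the left panel and unshaded roots in the right, and bars for replicates a and b at each time. The IGMT3 part kept a like height in both panels while the IGMT1 part made up most of the taller bars in shade at 3 d and 5 d.

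**Figure D3:**
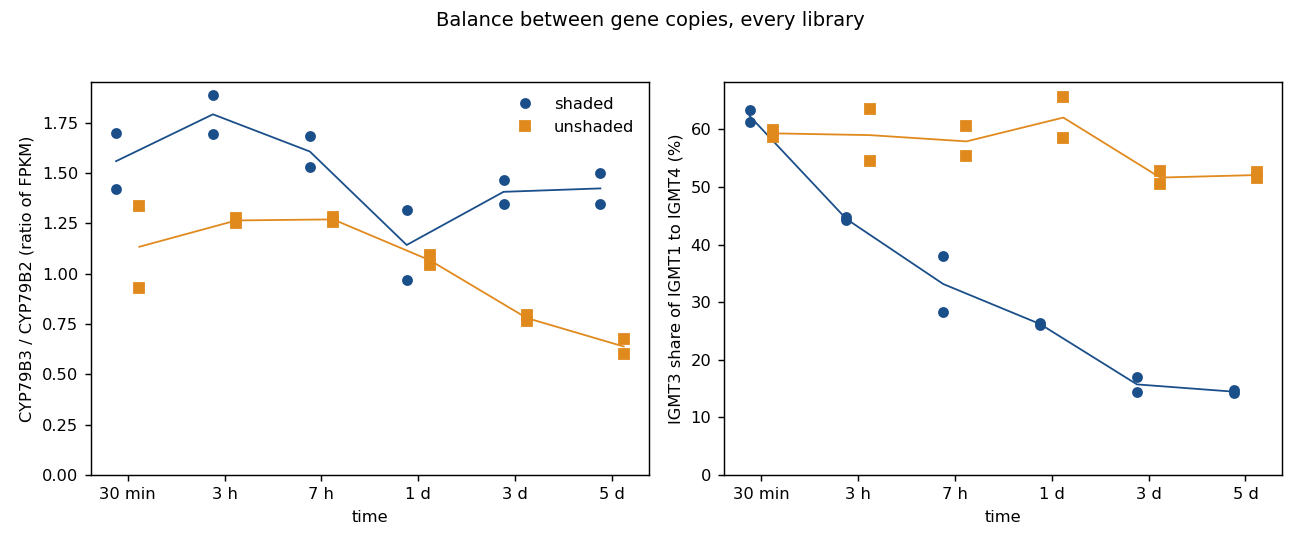
Left, the ratio of CYP79B3 to CYP79B2 FPKM, and right, the share of IGMT3 in the summed FPKM of IGMT1 to IGMT4, in every library against time, with circles for shaded and squares for unshaded roots and lines through the means of 2 libraries. At 5 d the ratio was 1.35 and 1.502 in shaded roots, against 0.602 and 0.674 in unshaded roots, and the share was 14.2% and 14.7%, against 52.6% and 51.5%.

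IGMT5 moved the other way. It had 103 and 117 FPKM in shaded roots at 3 h, against 239 and 204 FPKM in unshaded roots. At 1 d it had 106 and 96.6 FPKM in shaded roots, against 226 and 212 FPKM in unshaded roots. By 5 d it had 188 and 205 FPKM in shaded roots, against 214 and 224 FPKM in unshaded roots. Shaded libraries were thus well below unshaded ones from 3 h to 1 d and close to them again at 5 d. The log2 fold change was -1.01 ± 0.12 at 3 h (adjusted p = 2.53e-05), -1.005 ± 0.12 at 7 h, -1.11 ± 0.12 at 1 d and -0.44 ± 0.12 at 3 d (adjusted p = 0.00599), and it did not pass the test at 30 min or 5 d. Without shaded 3 d replicate b the 3 d difference was -0.25 (adjusted p = 0.117), and with only the 3 d libraries fitted its adjusted p was 0.0623. CYP81F4, the hydroxylase known for the ring-nitrogen branch, fell at 3 of these times, by 1.18 at 3 h, 0.90 at 7 h and 0.80 at 1 d on the log2 scale, and rose by 0.43 at 5 d.

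The shaded 7 h libraries stood apart from each other in the genes that rose. CYP81F2 had 35.5 FPKM in replicate a and 8.93 FPKM in replicate b, against 7.65 and 7.54 FPKM in unshaded roots. IGMT4 had 37.1 and 13.99 FPKM in shaded roots, against 4.40 and 4.66 FPKM in unshaded roots, and IGMT1 96.4 and 52.2 FPKM, against 24.6 and 32.8 FPKM. IGMT2 had 14.3 and 3.79 FPKM in shaded roots, against 4.72 and 4.50 FPKM in unshaded roots. Replicate a was the higher in all 4 genes, and in IGMT2 replicate b was below both unshaded libraries. CYP71A12, no member, showed the same gap, with 48.8 and 6.38 FPKM in shaded roots, against 15.3 and 15.5 FPKM in unshaded roots. Over all genes tested the median difference between these 2 libraries was 0.09 on the log2 scale, but it was 1.88 for CYP81F2. The call of CYP81F2 at 7 h (1.15 ± 0.41, adjusted p = 0.0355) was lost without replicate a (0.21, adjusted p = 0.624), and also without unshaded 7 h replicate a (adjusted p = 0.108) or b (adjusted p = 0.116), with no filter on low values (0.0577) or with only the 7 h libraries fitted (0.252). The effect of IGMT2 was -0.23 without replicate a and 1.45 (adjusted p = 0.000945) without replicate b, and those of IGMT1 and IGMT4 ran from 0.86 to 1.73 and from 1.44 to 2.78. Relative depth of the pair was 1.13 and 1.09, and their shoot markers summed to 163 and 155 FPKM. The part of either in the gap was not tested.

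Counted over the 10 genes, limma called none at 30 min, where CYP81F2 had an unadjusted p under 0.05 and 3.69% of all genes tested were called higher and 2.29% lower. At 3 h, 1 member was higher and 3 were lower, against 15.2% and 10.5% of all genes (12.6% and 13.2% with median-of-ratios scaling). At 7 h, 3 were higher and 5 lower, against 21.3% and 20.6%. At 1 d, 4 were higher and 4 lower, against 28.3% and 22.6%. At 3 d, 5 were higher and 2 lower, against 28.6% and 29.6%. At 5 d, 5 were higher and 1 was lower, against 22.2% and 33.7% (28.2% and 26.8% with median-of-ratios scaling). Averaged over the times, 5 members were higher and 4 lower, against 34.6% and 35.9%. Calls between shaded and unshaded roots thus covered a large part of all genes tested from 7 h on. In either direction, 8 of the 10 were called at 7 h and at 1 d, against 41.9% and 50.9% of all genes, 7 at 3 d, against 58.2%, and 6 at 5 d, against 55.9%, so the counts at 3 d and 5 d lay near the share of all genes.

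**Figure D4:**
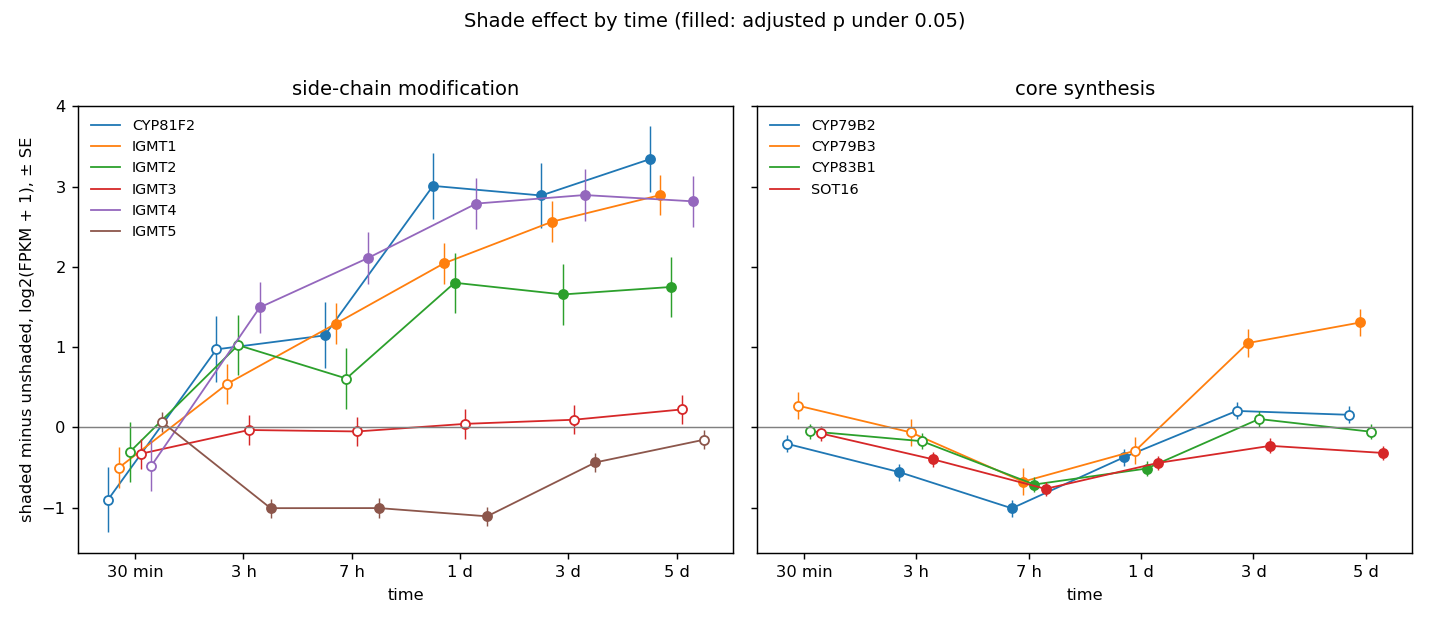
Shade effect (shaded minus unshaded, log2(FPKM + 1), with its SE) of each gene against time, for side-chain modification on the left and core synthesis on the right. Filled points passed the test and open points did not, and the 4 rising genes reached 1.75 to 3.34 at 5 d while the core genes were lowest at 7 h.

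Whether the shade effect differed between times was tested directly. The light by time test called 9 of the 10 genes, all but IGMT3, against 55.8% of all genes tested. The smallest adjusted p was 1.65e-05, for IGMT1, and the largest of the 9 was 0.0173, for IGMT2. The call of IGMT2 was lost without shaded 30 min replicate a (adjusted p = 0.0573) or unshaded 30 min replicate b (adjusted p = 0.0686). The mean effect at 1 d, 3 d and 5 d minus that at 30 min, 3 h and 7 h was 2.67 ± 0.34 for CYP81F2, 2.06 ± 0.21 for IGMT1, 1.79 ± 0.26 for IGMT4, 1.29 ± 0.31 for IGMT2, 0.85 ± 0.14 for CYP79B3 and 0.59 ± 0.09 for CYP79B2, and all 6 passed the test. For CYP83B1, SOT16, IGMT3 and IGMT5 it was 0.08 to 0.26 and was not called. Over all genes, 21.5% were called higher late and 27.9% lower (26.7% and 21.5% with equal FPKM sums). The value of CYP83B1, 0.16, was 0.20 (adjusted p = 0.0358) without unshaded 30 min replicate a and 0.21 (adjusted p = 0.0207) without shaded 3 d replicate b. In shaded roots 9 members changed with time, again all but IGMT3, against 71.4% of all genes.

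Members were also compared with each other by their 12 group means. CYP81F2, IGMT1, IGMT2 and IGMT4 had a Pearson r of 0.840 to 0.960 between any pair of them. IGMT5 was at 0.918 with SOT16, 0.841 with CYP83B1 and 0.809 with CYP79B2, but at 0.277 with CYP79B3, the other core gene, and at -0.67 to -0.16 with the other 5 side-chain genes. IGMT3 was at 0.499 to 0.572 with the 4 rising genes. These values are a description over 12 groups, whose libraries the genes share. Among 16757 other genes, those most like the mean profile of side-chain modification were AT1G26420, PXMT1, AT5G42440, RGLG1 and GUS1, with r of 0.981 to 0.982 over the 12 groups. That mean includes each of its members, unscaled, so genes with larger changes weigh more in it. With it the 4 rising genes had r of 0.931 to 0.976, IGMT3 0.581 and IGMT5 -0.416. PXMT1 had group means from 2.28 to 56.9 FPKM. The core synthesis mean, made in the same way, had r of 0.947 with CYP79B2, 0.949 with CYP83B1, 0.822 with SOT16 and 0.717 with CYP79B3. The other genes most like core synthesis were TPR3, AT5G10290, NAP1;2, PTAC9 and AT2G43200, with r of 0.914 to 0.941. Their group means ran from 10.9 to 17.7 FPKM in TPR3, the widest of the 5 by ratio, and from 133 to 159.9 FPKM in NAP1;2, the narrowest.

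The rest of the pathway is given by the average shade effect over the 6 times, where the median over all genes tested was -0.01 and 34.6% of all genes were called higher and 35.9% lower, 70.5% in all. Of 6 transcription factors of the pathway, 5 rose and 1 fell. MYB51, an activator of indolic glucosinolate genes, ranged from 3.42 to 24.3 FPKM in shaded libraries (median 14.5) and from 2.66 to 5.24 FPKM in unshaded libraries (median 3.44), an average of 1.49 ± 0.12. MYB122, a related activator, rose by 0.92 ± 0.09, and MYC3 by 0.47 ± 0.03. MYB34, the activator known for its role in roots, fell by 0.67 ± 0.06 on the log2 scale. MYB34 had 46.2 to 111 FPKM in shaded libraries (median 64.2) and 97.3 to 132 FPKM in unshaded libraries (median 114). At 1 d, MYB51 had 19.4 and 24.3 FPKM in shaded roots, against 2.66 and 2.87 FPKM in unshaded roots, and MYB34 had 61.1 and 46.2 FPKM in shaded roots, against 116 FPKM in both libraries of unshaded roots. At 7 h MYB51 showed the split of the shaded libraries again, with 12.4 and 3.94 FPKM.

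Steps that indolic glucosinolates share with other glucosinolates fell on average, though not at every time. All 5 genes of the shared core steps fell, with a median of -0.49, among them the C-S lyase SUR1 (-0.67 ± 0.03), the glucosyltransferase UGT74B1 (-0.53 ± 0.03) and the peptidase GGP1 (-0.49 ± 0.04). Both adenylyl-sulfate kinases that supply the sulfate donor fell, APK by 0.64 and AKN2 by 0.54 on the log2 scale. At single times, GSTF10 of the shared core steps was higher in shade at 5 d (0.14, adjusted p = 0.0405 in limma). AKN2 passed the test only at 3 h, 7 h and 1 d. Of 11 genes of tryptophan supply, 5 were higher, 4 lower and 2 not called, near the shares of all genes. ASA1, the feedback-regulated anthranilate synthase subunit, rose by 0.47 ± 0.05, with 15.3 to 48.1 FPKM in shaded libraries (median 30.9) and 18.5 to 27.1 FPKM in unshaded libraries (median 19.8). TSB1 and ASB1 each rose by 0.18, while TSB2 fell by 0.28, ASA2 by 0.27 and PAI2 by 0.21.

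Genes that use the same oxime or the same enzyme families did not move as 1 group. The 3 relatives of CYP81F2 all fell on average, CYP91A2 (also called CYP81F1) by 1.12, CYP81F4 by 0.46 and CYP81F3 by 0.16. At single times CYP81F3 passed the test only at 30 min (-0.46, adjusted p = 0.0404 in limma). Of 4 tested genes that use indole-3-acetaldoxime or its products elsewhere, 3 rose and 1 fell. CYP71A12, a P450 of the camalexin and related branch, rose by 1.38 ± 0.22 on average and had 169 and 251 FPKM in shaded roots at 1 d, against 10.5 and 16.4 FPKM in unshaded roots. The nitrilase NIT2 rose by 1.09 and PAD3, the last enzyme of camalexin synthesis, by 0.51, while NIT1 fell by 0.18. CYP71A13, the near copy of CYP71A12, averaged 0.169 FPKM and did not enter the fit, and the part of shared reads in this was not tested. Of 10 genes of breakdown and transport, 5 rose, 2 fell and 3 were not called, so the number called in all was at the share of all genes. PEN3, a plasma-membrane exporter, rose by 0.49, NRT1.9, a transporter related to GTR1, by 0.47 and the beta-glucosidase BGLU22 by 0.38, while GTR1 fell by 0.27 and the abundant beta-glucosidase PYK10 by 0.20. PYK10 turned with time: it was called lower in shade at 3 h (-0.53), 7 h (-0.57) and 1 d (-0.64). At 5 d PYK10 was higher in shade (0.60, adjusted p = 0.000285 in limma). Aliphatic core synthesis gave larger falls, in all 4 genes tested. CYP83A1, the counterpart of CYP83B1, had 1.31 to 68.9 FPKM in shaded libraries (median 8.30) and 51.1 to 170.2 FPKM in unshaded libraries (median 75.6), an average of -3.05 ± 0.06, against -0.23 ± 0.04 for CYP83B1. CYP79F2 fell by 2.77, and SOT18, a relative of SOT16, fell by 1.22. CYP79F1, a near copy of CYP79F2, averaged 0.0718 FPKM and did not enter the fit, and the part of shared reads in this was not tested.

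**Figure D5:**
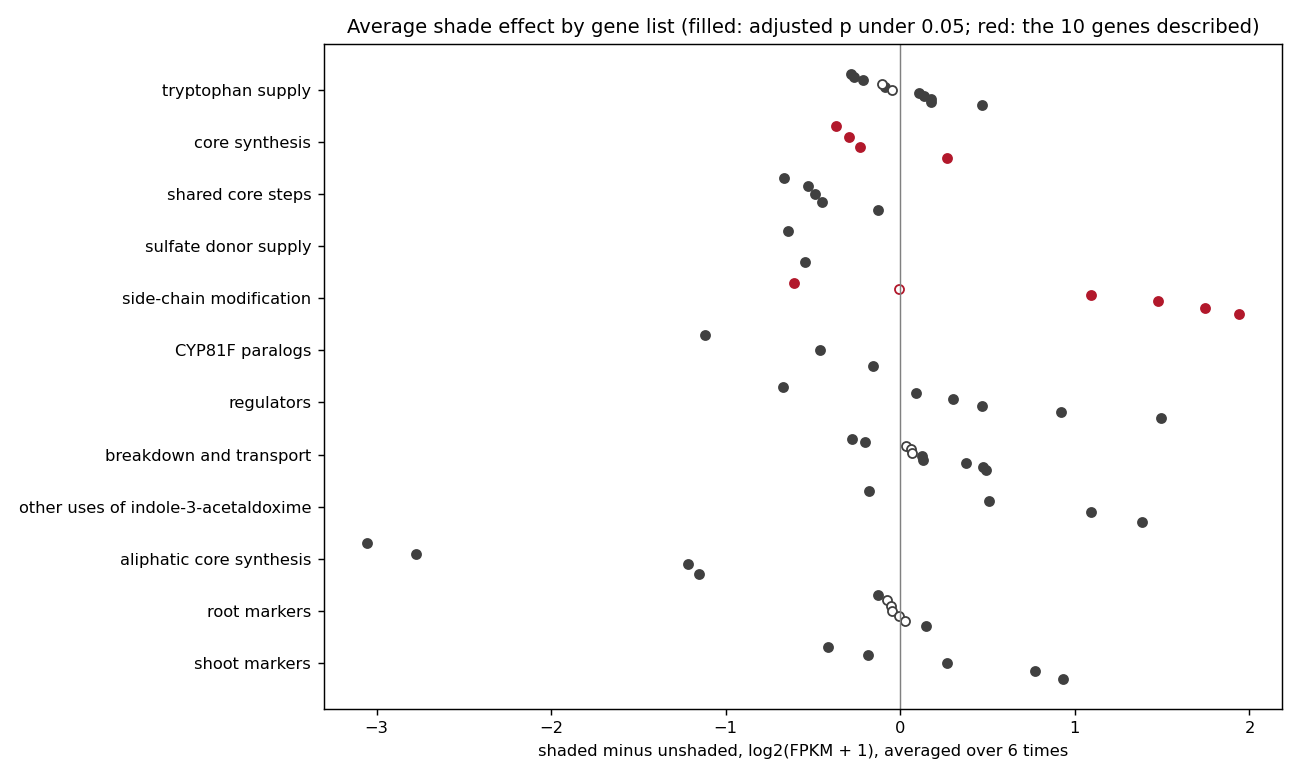
Average shade effect over 6 times (log2(FPKM + 1), shaded minus unshaded) of each gene, by list, with the 10 genes described in red, filled points past the test and open points not. Side-chain modification spans -0.61 to 1.94, the shared core steps are all below 0, and the aliphatic core genes are the lowest, down to -3.05.

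Of the shoot markers, 5 entered the fit. Averaged over times, 34.6% of all genes tested were called higher and 35.9% lower. Of these 5 markers, 3 rose on that average (LHCA1, RBCS1A and RCA) and 2 fell (LHCB2.1 and SBPASE). Their summed level in shaded roots was 1.34 times that in unshaded roots at 30 min, 1.48 times at 3 h, 1.80 times at 7 h, 1.69 times at 1 d, 2.02 times at 3 d and 0.900 times at 5 d.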

How the data were processed

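Transcript levels in 24 Arabidopsis root libraries were taken from the table that the authors deposited as FPKM, in which every column was assigned to a sample by its title. The tomato table was not used here. The submitters' processing notes name Cufflinks 2.1.1 and TAIR10 with no role, and the aligner and read length are not given in the sources used here. FPKM sums ranged from 884979 to 994315, and no counts are given, so depth is known only relative to the other libraries, from steps in the low values (between libraries, 88.2% of the ratios of low values were ratios of small integers, and 0.243% were when shifted off the step).

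Values were analysed as log2(FPKM + 1), with a pseudocount of 1, keeping those that averaged 1 FPKM or more. Fold changes on this scale understate the change of low genes such as IGMT2. A linear model with 12 group means was fitted in limma 3.58.1 (R 4.3.3; eBayes with a trend), so the groups shared 1 estimate of spread. Calls needed an adjusted p under 0.05, by Benjamini-Hochberg over all tested genes of the comparison. The fit was tested on simulated data with independent noise and few changed genes. That setting differs from these data, so it cannot vouch for the calls given here. The genes and lists were chosen with earlier results of these data known. All 10 genes are named, and from each other list up to 3 called rises and 3 called falls by the average effect, plus the 5 genes most like each class among those with a group mean of at least 5 FPKM. CYP79F1, CYP71A13 and CAB2 were added after their values were seen. So were the values at single times of CYP81F3, CYP81F4, CYP71A12, PYK10, GSTF10, AKN2, the root and shoot markers and the MYB genes.

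Gene names, positions and sequences are RefSeq's for TAIR10.1, with the transcript of the lowest accession per gene, and alignments used biopython 1.88. IGMT2 was aligned by its isoform with the coding length of IGMT1. Of the 33557 identifiers, 32810 were found in RefSeq. Alternatives were a pseudocount of 0.1, no filter, median-of-ratios scaling, equal FPKM sums, only the groups compared, the replicate letter as a block, and each library left out. Figures were drawn with matplotlib 3.10.9.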

Additional observations from a re-analysis of the deposited data

Results flagged for a closer look

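The shade effect of 9 of the 10 genes differed between times by the light by time test in limma, and IGMT3 was the exception. The span between a gene's highest and lowest shade effect over the 6 times, on the log2 scale, was 4.241 for CYP81F2, 3.397 for IGMT1, 3.373 for IGMT4 and 2.109 for IGMT2. It was 1.984 for CYP79B3, whose effect was below 0 at 7 h and above 0 at 3 d and 5 d. Smaller spans were 1.214 for CYP79B2, 1.174 for IGMT5, 0.816 for CYP83B1 and 0.691 for SOT16. The test called 55.8% of all genes, so a difference between times was common in these roots.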

How the results depend on the processing

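No called value of a single gene changed its sign under any alternative. Among single genes at single times, averaged, or late minus early, the alternatives other than leaving out a library gave 312 called values that stayed called and 9 that did not. The 9 were SOT16 at 3 d under 5 settings (adjusted p 0.0587 to 0.147), CYP81F2 at 7 h with no filter (0.0577) or only the groups compared (0.252), and, with only the groups compared, IGMT1 at 7 h (0.0548) and IGMT5 at 3 d (0.0623). CYP83B1, late minus early, passed with either scaling (0.20 and 0.21). Signs of uncalled values turned for CYP83B1 at 5 d with median-of-ratios scaling (0.0277) and for IGMT3 on average with equal FPKM sums (0.0136).

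The count of all genes called was 1169 at 30 min, against 176 with only the groups compared and 627 with the replicate block within times, and 5009 at 3 h, against 1593 with only the groups compared. Shaded and unshaded libraries of the same letter and time showed no shared deviation from their group means, with correlations of -0.03 to 0.07. This cannot show whether such libraries were handled together. The replicate block ended no other call of the 10 genes than SOT16 at 3 d. With equal FPKM sums 3 members, not 1, changed with time in unshaded roots. Among the other lists, PYK10 lost its average call with no filter (adjusted p = 0.0960), and SHV2 with equal FPKM sums (0.0673) or the replicate block within times (0.0566). The cause of these shifts was not tested, except that fewer samples enter a fit to the groups compared.

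Leaving out each library gave 471 to 838 genes called at 30 min and 3160 to 4187 at 3 h, and 0 to 3 members with time in unshaded roots. Median effects of core synthesis ran from -0.169 to 0.0472 at 30 min and from -0.0214 to 0.333 at 3 d, and that of side-chain modification from -0.0105 to 1.59 at 7 h. Uncalled values crossed 0 for CYP83B1 (-0.179 to 0.0858 at 30 min, -0.0522 to 0.262 at 3 d, -0.11 to 0.0016 at 5 d), SOT16 (-0.158 to 0.0087 at 30 min), IGMT5 (-0.0819 to 0.214 at 30 min), CYP79B3 (-0.158 to 0.036 at 3 h), IGMT2 (-0.23 to 1.45 at 7 h) and IGMT3 (-0.30 to 0.23 at 3 h, -0.26 to 0.16 at 7 h, -0.0205 to 0.11 at 1 d, -0.048 to 0.24 at 3 d, -0.0513 to 0.0364 on average).

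With 2 libraries a group, calls rest on the spread shared by all groups. Depth is not known in counts, shared reads limit IGMT2 and IGMT3, and how many roots a library pooled is not given in the sources used here.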
